A study of Homo sapiens with 12 samples.

Results

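The comparison described here sets linc-ADAIN knockdown (KD) against scramble control in human adipocytes that had all received LPS. It uses 6 of the 12 RNA-seq libraries of the series, chosen by their labels: 3 of linc-ADAIN shRNA with LPS and 3 of scramble shRNA with LPS. The cells were ASC52telo hTERT, an adipose stromal cell line immortalized with telomerase, taken through adipocyte differentiation to day 14 and given LPS at 100 ng/mL for 4 h. Both groups carried a lentiviral hairpin vector with the ZsGreen reporter and were sorted for ZsGreen, so every library had been through transduction and FACS. The KD rests on 1 hairpin in 1 cell line, and the study describes its RNA-seq as 1 experiment in triplicate. The sources used here name no more than 1 sorted population per shRNA, so that an effect of the hairpin and a difference between the sorted populations cannot be told apart. The p-values below measure the spread between these libraries, which may be technical. The other 6 libraries, the same cells without LPS, serve below as side values. Where a replicate is named with no further word, it is one of the libraries with LPS.

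linc-ADAIN is a long intergenic non-coding RNA of adipose tissue. Its RefSeq gene lies on chromosome 9 of GRCh38 between 1048143 and 1048641, and its level in these libraries was not analysed here, so the KD itself could not be checked from the counts. LPS, a component of the bacterial outer membrane, is sensed by TLR4 with its partners LY96 and CD14. The signal passes through MYD88 and the IRAK kinases to NF-κB, which enters the nucleus and switches on chemokines, cytokines and its own inhibitors. Adipocytes carry this pathway next to the program that stores fat, in which PPARG and C/EBP factors drive genes for fatty acid synthesis, lipid droplets and secreted adipokines.

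The chemokines that attract neutrophils bind CXCR1 and CXCR2 and lie in 1 cluster on chromosome 4. All 6 that were tested have a match to the NF-κB-like letters GGAATTTCC shortly before their RefSeq start. The windows below run from 110 to 41 bases before the start, 5′ to 3′ on the strand of the gene, with that match in capitals. They are shown because all 6 neutrophil chemokines tested were higher in KD.
CXCL8 (chr4:73740459-73740528, plus strand): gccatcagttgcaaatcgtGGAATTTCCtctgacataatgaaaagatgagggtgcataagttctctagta
CXCL1 (chr4:73869283-73869352, plus strand): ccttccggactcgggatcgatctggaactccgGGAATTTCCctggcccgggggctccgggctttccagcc
CXCL2 (chr4:74099236-74099305, minus strand): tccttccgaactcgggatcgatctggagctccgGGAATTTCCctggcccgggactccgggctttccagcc
CXCL3 (chr4:74038730-74038799, minus strand): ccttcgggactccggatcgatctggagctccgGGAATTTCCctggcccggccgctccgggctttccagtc
CXCL5 (chr4:73998718-73998787, minus strand): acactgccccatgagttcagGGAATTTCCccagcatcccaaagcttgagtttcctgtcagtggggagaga
CXCL6 (chr4:73836568-73836637, plus strand): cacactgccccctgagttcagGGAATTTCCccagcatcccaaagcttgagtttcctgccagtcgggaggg

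The match began 91 bases before the start in CXCL8, 78 in CXCL1, 77 in CXCL2, 78 in CXCL3, 90 in CXCL5 and 89 in CXCL6. CXCL1, CXCL2 and CXCL3 resemble each other along the window, as do CXCL5 and CXCL6, so these are not independent occurrences. Of the 27305 RefSeq windows of 300 bases that were searched on both strands, 0.472% held GGAATTTCC, as did 0.478% of those of tested genes. It was found in 9 of 533 windows (1.69%) of genes changed and higher in KD and 0 of 466 of those changed and lower, but the letters were chosen from the chemokines themselves, and CXCL8, CXCL1, CXCL3 and CXCL5 are 4 of the 9. A match describes the letters only, and binding was not measured.

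IL6 and BIRC3, described below, carry related letters. The IL6 window (chr7:22726950-22727249, plus strand, 250 bases before to 50 after the start) is shown with an NF-κB-like GGNNTTTCC and a C/EBP-like TTGCNNAA match in capitals, 72 and 155 bases before the start.
IL6: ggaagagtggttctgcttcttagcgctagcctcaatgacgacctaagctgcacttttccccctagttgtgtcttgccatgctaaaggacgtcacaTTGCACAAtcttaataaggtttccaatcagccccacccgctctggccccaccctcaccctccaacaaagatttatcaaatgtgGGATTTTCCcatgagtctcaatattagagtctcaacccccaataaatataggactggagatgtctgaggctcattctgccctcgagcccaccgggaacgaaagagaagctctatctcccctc
The BIRC3 window (chr11:102317234-102317533, plus strand) holds the reverse complement of a GGNNTTTCC match, in capitals, 199 bases before the start.
BIRC3: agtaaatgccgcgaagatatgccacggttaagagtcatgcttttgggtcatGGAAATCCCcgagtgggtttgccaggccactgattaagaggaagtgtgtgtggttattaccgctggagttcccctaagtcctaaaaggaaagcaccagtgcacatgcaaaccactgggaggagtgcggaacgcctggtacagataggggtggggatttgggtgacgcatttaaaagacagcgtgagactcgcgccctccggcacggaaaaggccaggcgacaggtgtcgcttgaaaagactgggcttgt
Windows with GGNNTTTCC made up 6.26% of all, 6.8% of those of tested genes, 8.07% of those changed and higher in KD and 3.65% of those changed and lower. TTGCNNAA was found in 10.6% of all windows, 7.49% of those of tested genes, 9.76% of the higher and 9.23% of the lower. The AP-1-like TGANTCA was found in 7.76% of all windows, 4.96% of those of tested genes, 9.57% of the higher and 4.72% of the lower. Among the NF-κB feedback inhibitors, 7 of 15 with a window (46.7%) held GGNNTTTCC.

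Counts on named genes totalled 31.5 to 44.5 M (1e6) per library in scramble control with LPS and 28.4 to 45.3 M in KD with LPS. Log2 CPM correlated between replicates at 0.983 to 0.989, and replicate libraries differed by more than sampling noise. Mitochondrial genes held 10.7% to 12.1% of the counts in scramble control and 11.6% to 12.8% in KD. Values per library are given below as CPM (counts per 1e6 after TMM scaling over all 12 libraries), in the order of replicates 1, 2 and 3. Log2 fold changes are KD minus scramble control from edgeR's quasi-likelihood test, and adjusted p is that test's p after Benjamini-Hochberg adjustment over all 15981 genes tested. A gene counted as changed when this adjusted p was below 0.05 and the groups differed 2-fold or more. SE stands for the standard error of such a value. For a single gene, an exact two-sided permutation test of 3 libraries against 3 could not go below 0.1.

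Of the genes tested, 1355 (8.48%) were changed, with 732 (4.58%) higher and 623 (3.9%) lower in linc-ADAIN KD. A difference of at least 4-fold was seen in 355 genes with more counts in KD and in 209 with fewer. By the adjusted p alone, 4292 genes (26.9%) passed, 2026 higher (12.7%) and 2266 lower (14.2%). These shares, by the adjusted p and at 2-fold, are the background for the counts of list members given below. The groups did not overlap for 6474 genes (40.5%), so that a lack of overlap on its own was common. The median log2 fold change over all genes was 0.03. In the plot of the gene lists, chemokines, cytokines and NF-κB feedback inhibitors lie to the right, and lipid droplet, triglyceride synthesis and lipolysis genes to the left.

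**Figure D1:**
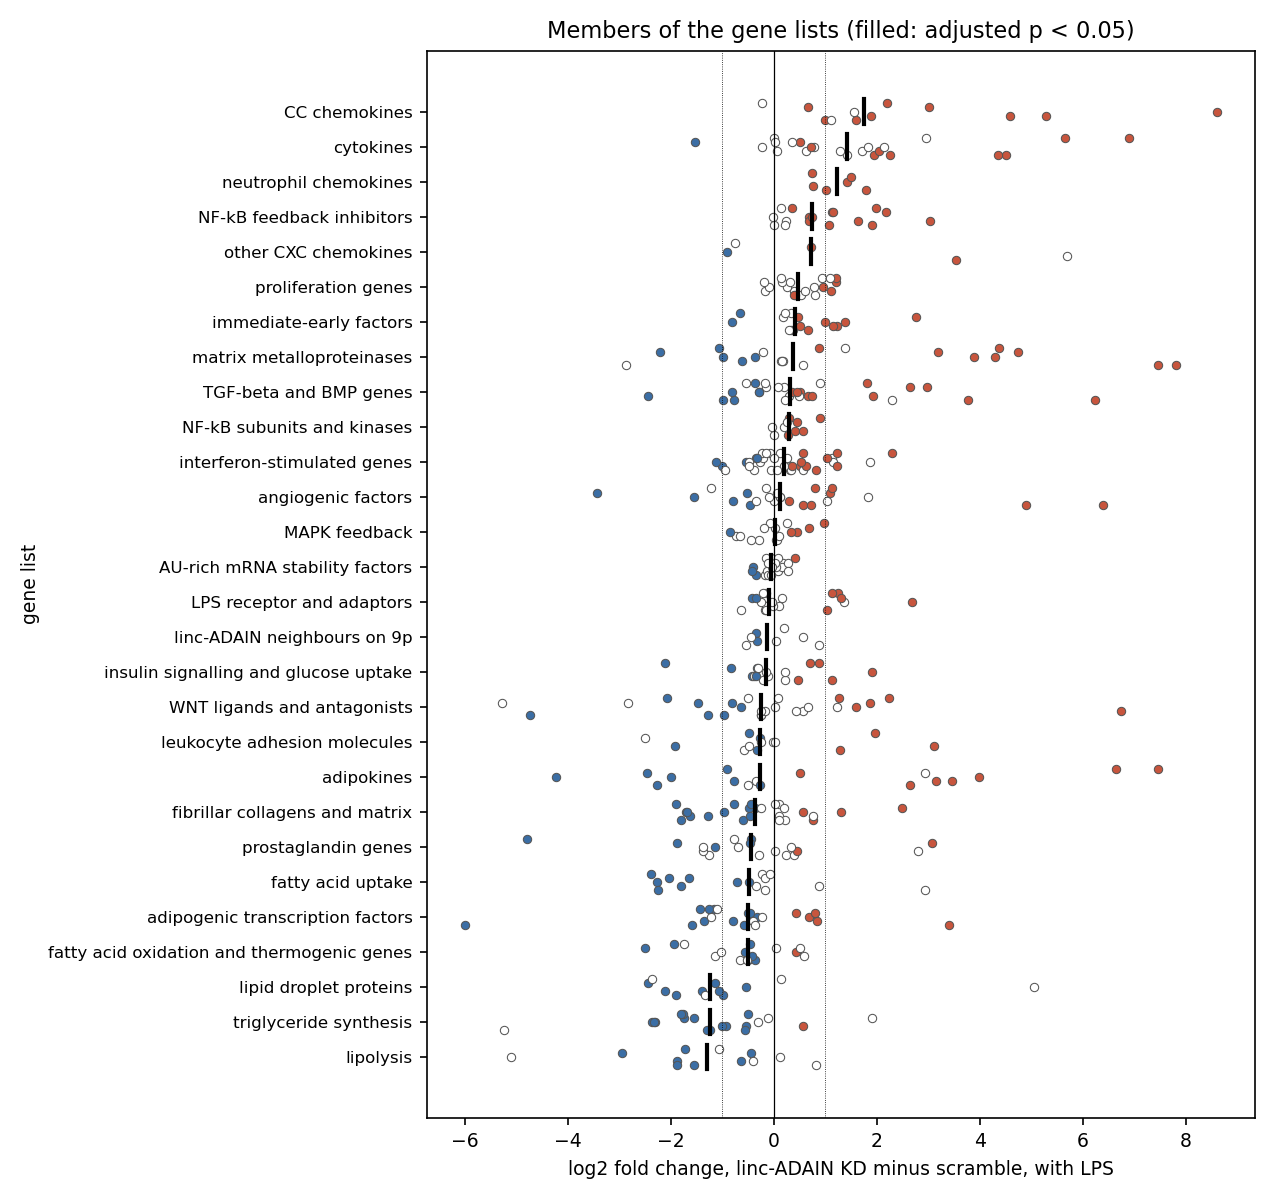
Log2 fold change of linc-ADAIN KD against scramble control with LPS (x axis) for every tested member of each gene list other than the cell type markers (y axis). Filled points have an adjusted p under 0.05 (red higher, blue lower in KD), open points do not, black bars are list medians and dotted lines mark 2-fold; the medians of the lists plotted run from 1.75 for CC chemokines to -1.31 for lipolysis genes.

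The neutrophil chemokines were higher in KD as a group. All 6 tested members passed the test, 4 of them at 2-fold or more, with a median log2 fold change of 1.22 against 0.03 over all genes; PPBP and PF4 had too few counts to be tested. IL-8, encoded by CXCL8 (chr4:73740569-73743716), was at 436, 429 and 494 CPM in scramble control and 1518, 1427 and 1732 CPM in KD. The lowest KD library lay far above the highest scramble library, and the log2 fold change was 1.79 (SE 0.088, adjusted p = 6.38e-09). CXCL5 was at 545, 455 and 516 CPM in scramble control and 1360, 1343 and 1554 CPM in KD, 2.82-fold higher. CXCL3 was at 107, 117 and 108 CPM against 291, 299 and 299 CPM in KD, 2.70-fold higher. CXCL1 was at 307, 311 and 306 CPM against 619, 608 and 625 CPM in KD, 2.02-fold higher and thus close to the threshold. In none of these genes did the groups overlap. CXCL2 and CXCL6 passed the test below 2-fold, at log2 fold changes of 0.76 and 0.74. CXCL1, CXCL2 and CXCL3 are similar in sequence, and how kallisto shared reads among them was not tested. Summed over the 6 genes, the libraries held 1720 to 1890 CPM in scramble control and 4440 to 5010 CPM in KD.

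**Figure D2:**
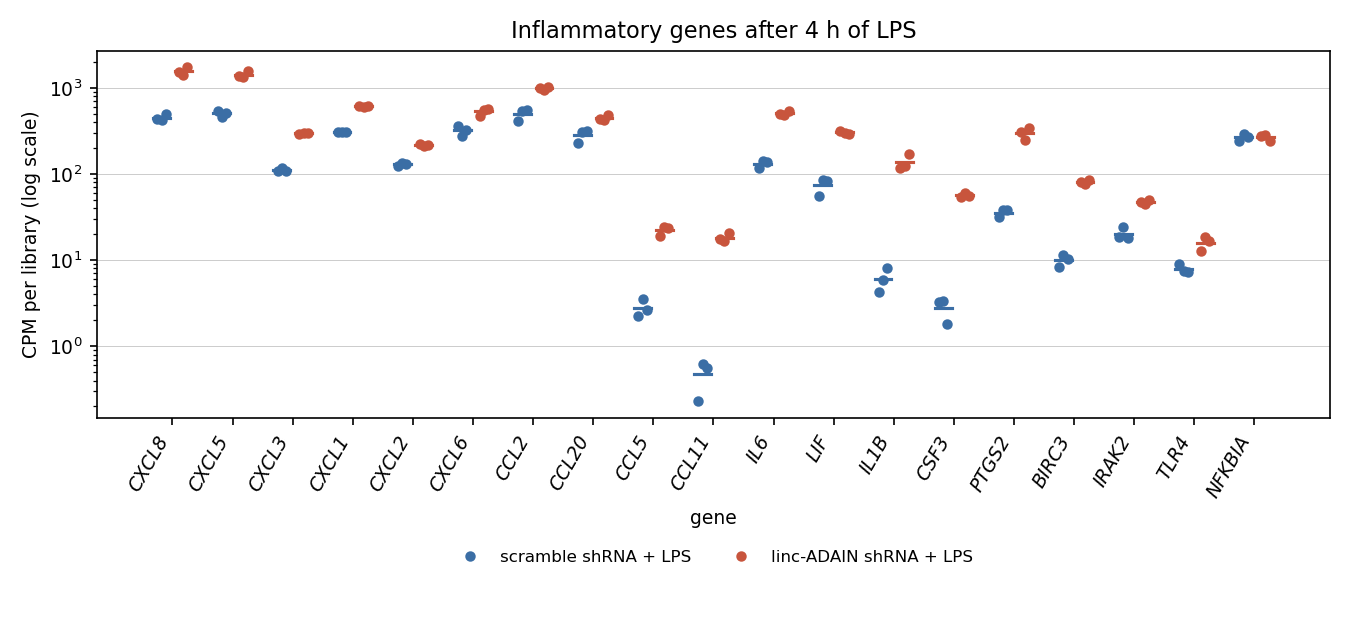
CPM per library on a log axis (y) for 19 inflammatory genes (x), with scramble control plus LPS in blue and linc-ADAIN KD plus LPS in red; each point is 1 library and each bar the mean of 3. Points of both groups mix for NFKBIA, while the KD libraries sit above the scramble libraries for the other genes, from CXCL8 at 1427 CPM or more in KD down to CCL11.

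CC chemokines, which draw monocytes, eosinophils and T cells, were also higher. Of 12 tested, a list that includes the CX3C chemokine CX3CL1, 9 passed the test as higher and none as lower, 7 of them at 2-fold or more, with a median log2 fold change of 1.75. MCP-1, encoded by CCL2, the main attractant of monocytes, was at 412, 542 and 552 CPM in scramble control and 994, 953 and 1039 CPM in KD. Its log2 fold change of 0.996 (SE 0.099, adjusted p = 5.29e-06) fell just short of 2-fold, and the groups did not overlap. CCL20, a ligand of CCR6, was at 227, 309 and 320 CPM against 442, 424 and 482 CPM in KD, a log2 fold change of 0.66. CCL5 was low in scramble control, at 2.23, 3.52 and 2.63 CPM, and reached 19.3, 24.3 and 23.6 CPM in KD, 8.13-fold higher. CCL11 (eotaxin-1) went from 0.23, 0.63 and 0.564 CPM to 17.8, 16.6 and 20.4 CPM, 38.9-fold higher. The other members that passed, CCL3, CCL4, CCL7, CCL8 and CX3CL1, had means of 1.31 to 10.7 CPM in KD. CXCL12, a homeostatic chemokine that retains CXCR4-positive cells in tissue, went the other way, from 1198, 1371 and 1409 CPM to 737, 648 and 721 CPM, a log2 fold change of -0.91 (adjusted p = 1.44e-06). Of the 5 CXC chemokines outside the neutrophil group that were tested, 2 were higher and 1 was lower.

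Among the 23 cytokines tested, 9 passed the test as higher and 1 as lower, with 7 and 1 of these at 2-fold or more. The median log2 fold change was 1.42. IL6 was at 119, 141 and 137 CPM in scramble control and 500, 482 and 536 CPM in KD, and the groups did not overlap. The log2 fold change of IL6 was 1.94 (SE 0.084, adjusted p = 2.59e-09). LIF, a second cytokine that signals through gp130, was at 55.0, 86.0 and 83.9 CPM against 319, 303 and 294 CPM in KD, 4.10-fold higher. IL1B, which encodes IL-1β, was at 4.30, 5.90 and 8.01 CPM against 116, 124 and 173 CPM, and its log2 fold change was 4.50 (SE 0.21, adjusted p = 4.08e-09). IL1A, its partner at the same receptor, had a log2 fold change of 5.66 from a mean of 0.224 CPM. CSF3, the granulocyte colony-stimulating factor, was at 3.25, 3.38 and 1.81 CPM against 54.3, 60.3 and 56.0 CPM, 20.6-fold higher. CSF2, at 0 counts in all 3 scramble libraries and 6 to 20 counts in KD, was at least 4.82-fold higher, taking 3 counts per library as the limit, and lost its call without scramble replicate 3, KD replicate 2 or KD replicate 3. IL33, an alarmin of stromal cells, was the member that fell, from 68.5, 43.8 and 75.2 CPM to 24.7, 16.4 and 24.0 CPM (log2 fold change -1.53, adjusted p = 4.38e-05). CSF1, the macrophage growth factor, was nearly equal, at 415 ± 44.1 CPM under scramble shRNA against 422 ± 18.8 CPM under linc-ADAIN shRNA (SD, n = 3 each; log2 fold change 0.03, SE 0.083, adjusted p = 0.834). TNF had 5 to 12 counts in the scramble libraries and 4 to 19 in the KD libraries, and a difference was not detectable at this depth.

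Most genes on the receptor side of the pathway did not pass the test, as with all genes tested, of which 26.9% passed. Of 20 genes for the LPS receptor and its adaptors, 5 were higher and 2 lower by the adjusted p. Over all genes, 12.7% and 14.2% passed in these directions, so the higher share was above that background. The median log2 fold change was -0.10. The 5 were also 2-fold higher, against 4.58% of all genes. The count of 5 was 3 without scramble replicate 2. TLR4 was at 9.06, 7.43 and 7.23 CPM in scramble control and 12.6, 18.7 and 16.7 CPM in KD, a log2 fold change of 1.02 (SE 0.18, adjusted p = 0.000617). IRAK2, a kinase of the signaling complex, was at 18.8, 24.0 and 17.9 CPM against 47.4, 45.0 and 49.9 CPM, 2.37-fold higher. PELI1, a ubiquitin ligase that acts on IRAK proteins, was 2.48-fold higher, and CD14, the co-receptor, rose from a mean of 0.349 to 2.24 CPM. MYD88 (log2 fold change -0.15, adjusted p = 0.308) and LY96 (-0.15, adjusted p = 0.757) did not pass the test. None of the 10 NF-κB subunits and kinases was changed at 2-fold, although 6 were higher by the adjusted p, among them NFKB1 at a log2 fold change of 0.28, NFKB2 at 0.41, RELB at 0.45 and IKBKB at 0.57. NFKB2 lost its call without scramble replicate 3 or KD replicate 2, RELB without scramble replicate 1 or KD replicate 2, and NFKB1 without any 1 of scramble replicates 1 and 3 and KD replicates 1 and 3, while leaving out scramble replicate 3 put 1 gene of the list past 2-fold. RELA, the main transactivating subunit, was at 57.8, 83.8 and 72.6 CPM against 80.9, 82.6 and 81.6 CPM, and the groups overlapped (adjusted p = 0.218).

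Several feedback inhibitors of NF-κB are themselves among its targets. The list used for them is not made of inhibitors alone, as it also holds BIRC2, BIRC3, TNFAIP2 and TNFAIP8. Of its 17 members tested, 12 were higher by the adjusted p, 8 at 2-fold or more, none was lower, and the median log2 fold change was 0.74. BIRC3, a ubiquitin ligase at the TNF receptor complex, was at 8.31, 11.4 and 10.2 CPM in scramble control and 80.0, 76.4 and 86.4 CPM in KD. This is a log2 fold change of 3.03 (SE 0.12, adjusted p = 1.7e-09). TNIP3, a partner of A20, was at 7.83, 9.35 and 9.13 CPM against 38.9, 38.0 and 41.8 CPM, 4.54-fold higher. IER3 and TRAF1 were 3.94-fold and 3.77-fold higher, and the groups overlapped in none of these 4 genes. The classical inhibitors IκBα and A20 did not pass the test. NFKBIA, which encodes IκBα, was at 243, 295 and 267 CPM against 279, 285 and 241 CPM, a log2 fold change of 0.01 (SE 0.090, adjusted p = 0.96). TNFAIP3, which encodes A20, was at 309, 377 and 357 CPM against 419, 382 and 398 CPM (log2 fold change 0.21, adjusted p = 0.0796).

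Of 37 interferon-stimulated genes tested, 22 did not pass, and 10 were higher and 5 lower by the adjusted p, where 12.7% and 14.2% of all genes passed in these directions. The lower share was thus near that background. At 2-fold or more 4 were higher and 2 lower, and the latter count was 1 without any 1 scramble library or without KD replicate 2. IRF1, which is also an NF-κB target, was 2.04-fold higher. OAS1 and MX2, antiviral effectors, were lower by 2.17-fold and 2.01-fold.

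Most prostaglandin genes did not pass the test, as with all genes tested, of which 26.9% passed. Of 18 tested, 2 were higher and 5 lower by the adjusted p, where 12.7% and 14.2% of all genes passed. At 2-fold or more, 1 was higher and 3 were lower. Without KD replicate 2 the higher count was 2, and without KD replicate 1 the lower count was 5. PTGS2, the inducible cyclooxygenase COX-2, was at 31.5, 37.9 and 37.9 CPM in scramble control and 305, 251 and 343 CPM in KD, a log2 fold change of 3.08 (SE 0.12, adjusted p = 1.45e-09). The constitutive enzyme PTGS1 was lower, from 865, 694 and 770 CPM to 354, 371 and 330 CPM, and prostacyclin synthase, PTGIS, was 3.69-fold lower. PTGES, the inducible prostaglandin E synthase, was lower below 2-fold, at 269, 317 and 293 CPM against 214, 215 and 211 CPM (log2 fold change -0.45, adjusted p = 0.000588). PTGER3, a receptor for prostaglandin E2 that lowers cyclic AMP, went from 72.0, 63.5 and 75.2 CPM to 3.51, 2.30 and 1.65 CPM. That difference, 27.9-fold, was among the larger decreases of the comparison.

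Of 16 immediate-early factors, 9 were higher and 2 lower by the adjusted p. The nuclear receptor NR4A3 was at 41.2, 47.9 and 48.9 CPM in scramble control and 320, 283 and 326 CPM in KD, 6.77-fold higher (adjusted p = 3.6e-10). ATF3 and JUND were 2.59-fold and 2.21-fold higher, whereas FOSL1 and MYC fell by 0.81 and 0.65 on the log2 scale. Genes that act on AU-rich mRNAs, which include many cytokine transcripts, had a median log2 fold change of -0.05. By the adjusted p, 1 of 21 was higher and 3 were lower, where 12.7% and 14.2% of all genes passed in these directions. The lower share was thus near that background. IGF2BP2, which stabilizes bound mRNAs, was at 155, 162 and 168 CPM against 123, 116 and 126 CPM, a log2 fold change of -0.40 (SE 0.075, adjusted p = 0.00111). ELAVL1, which encodes HuR, was at 62.7 ± 2.77 CPM against 58.9 ± 2.57 CPM (SD, n = 3 each, adjusted p = 0.538).

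Genes of the extracellular matrix showed some of the widest differences. Of 20 matrix metalloproteinases and their inhibitors, 8 were higher and 5 lower by the adjusted p. Interstitial collagenase, MMP1, was at 1.43, 0.829 and 1.20 CPM in scramble control and 197, 222 and 368 CPM in KD, a log2 fold change of 7.81 (SE 0.28, adjusted p = 4.91e-10). MMP3 (stromelysin-1) was at 26.5, 23.8 and 35.5 CPM against 479, 476 and 726 CPM, 19.6-fold higher. KD replicate 3 was the highest library for both. MMP10 held 2 counts in total in scramble control and 107 to 173 counts per KD library, a ratio of 208 (95% counting interval 57.2 to 1720, which covers counting error only). MMP2, the gelatinase A, was at 2929, 3332 and 3273 CPM against 3302, 3552 and 3531 CPM, and did not pass the test (adjusted p = 0.177). The inhibitors were lower: TIMP3 fell from 405, 483 and 551 CPM to 102, 96.1 and 113 CPM, and TIMP1, TIMP2 and TIMP4 also passed the test as lower, of which TIMP3 and TIMP4 reached 2-fold (1 of them without KD replicate 2). Among 25 collagens and matrix proteins, 4 were higher and 13 lower by the adjusted p. COL4A1 and COL4A2, the chains of the basement membrane collagen IV, were 3.73-fold and 3.48-fold lower. The small proteoglycans LUM and DCN were 5.60-fold and 2.48-fold higher.

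The adipocyte side of the transcriptome was lower in KD. Of the 10 adipocyte markers, 9 passed the test as lower, 8 at 2-fold or more, with a median log2 fold change of -2.01. Summed over the list they held 4300 to 5140 CPM in scramble control and 523 to 1210 CPM in KD. LPL, a defining marker, had 5 counts in total in scramble control and 8 to 25 per KD library, and LEP was likewise near 0, so the label of adipocytes rests on the other markers. Without scramble replicate 2, LPL passed as higher. Stromal and preadipocyte markers were present in both groups, at 3640 to 3970 CPM in scramble control and 4060 to 4750 CPM in KD when summed. Within that list LUM and DPP4 were higher and THY1 and ENG lower at 2-fold or more, so it did not move as a whole. In bulk RNA, fewer adipocytes and less of each mRNA per adipocyte cannot be told apart. The markers of smooth muscle summed to 325 to 378 CPM against 122 to 179 CPM, and those of endothelial cells to 16.2 to 17.8 CPM against 9.15 to 13.7 CPM. Of 5 endothelial markers tested, 1 was higher and 3 were lower by the adjusted p. KDR was the higher one, at a log2 fold change of 4.89 from 2 to 6 counts per scramble library. VWF was lower at -2.77, and TEK and PECAM1 were lower but lost their calls without some single libraries. The markers of cartilage and bone summed to 35.3 to 55.1 CPM against 46.0 to 54.4 CPM, of which SOX9 gave 19.6 CPM in scramble replicate 2. In that list ACAN, the cartilage proteoglycan aggrecan, passed as higher, with 0, 5 and 2 counts in scramble control and 175 to 471 counts per KD library (adjusted p = 1.1e-06). Macrophage and leukocyte markers summed to 60.9 to 72.2 CPM against 79.9 to 107 CPM. In that list the scavenger receptor CD163 was 17.3-fold higher, CD68 was 2.37-fold lower, and ITGAM, CD3E and MS4A1 had too few counts to be tested. The part of these markers in the results was not tested.

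Adiponectin, encoded by ADIPOQ (chr3), was at 983, 1332 and 1154 CPM in scramble control and 352, 238 and 129 CPM in KD, a log2 fold change of -2.26 (SE 0.26, adjusted p = 1.67e-05). FABP4, the fatty acid binding protein of fat cells, was at 2005, 1973 and 1947 CPM against 583, 383 and 262 CPM, 4.80-fold lower. The KD libraries spread widely here, and KD replicate 1 was the highest of the 3 for all 9 markers that passed and replicate 3 the lowest for 8. No KD library reached the scramble libraries in any of these 9. Adipsin, encoded by CFD, went from 778, 1109 and 784 CPM to 56.6, 51.8 and 33.4 CPM, 18.7-fold lower.

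Of 21 adipogenic transcription factors, 5 were higher and 11 lower by the adjusted p. PPARG, the nuclear receptor at the head of the program, was at 73.1, 65.2 and 76.6 CPM in scramble control and 28.6, 21.2 and 21.4 CPM in KD, a log2 fold change of -1.59 (SE 0.12, adjusted p = 5.02e-07). CEBPA was lower below 2-fold, at a log2 fold change of -0.79, while CEBPB and CEBPD, which act early in differentiation, were higher by 0.68 and 0.44, CEBPD not without KD replicate 2. KLF5, another early factor, was at 1.92, 2.79 and 4.65 CPM against 35.4, 29.2 and 34.4 CPM, 10.5-fold higher. KLF4 was 2.25-fold lower. SREBF1, which encodes the lipogenic factor SREBP-1, was at 105, 138 and 120 CPM against 41.6, 54.2 and 38.4 CPM, a log2 fold change of -1.42, and lies within a stretch of chromosome 17 described below whose genes were lower together.

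**Figure D3:**
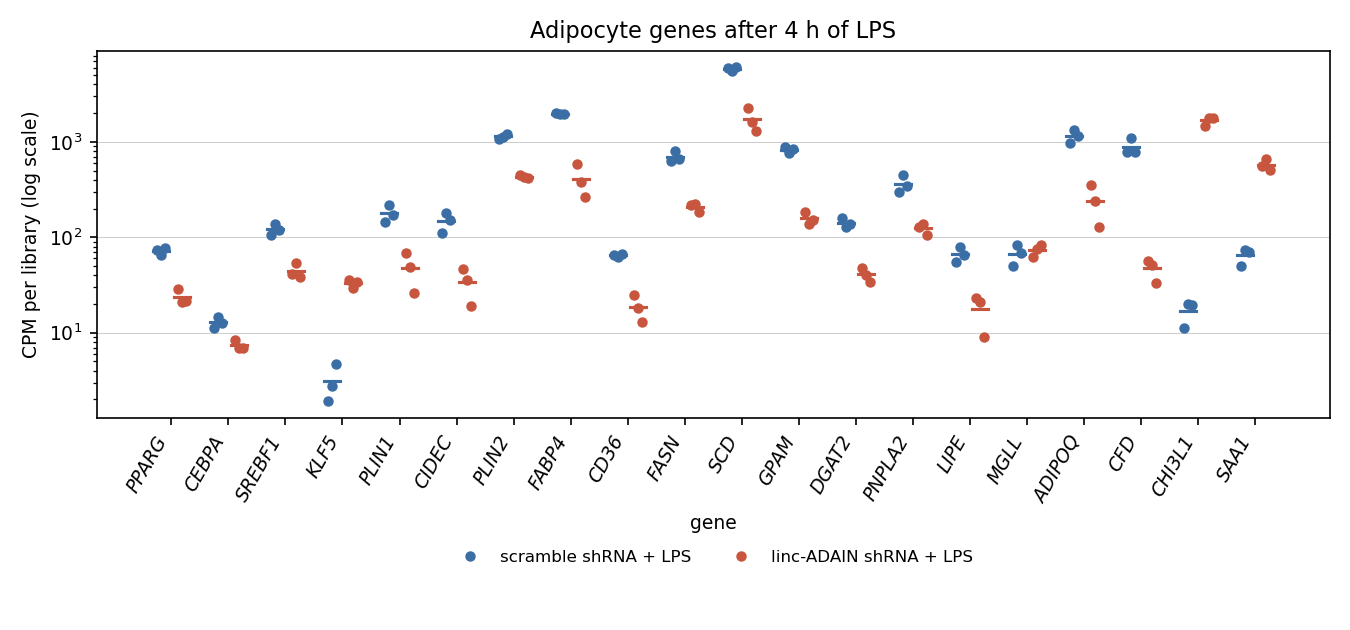
CPM per library on a log axis (y) for 20 adipocyte genes and secreted proteins (x), scramble control plus LPS in blue and linc-ADAIN KD plus LPS in red; points are libraries and bars the means of 3. KD libraries lie below scramble libraries from PPARG to CFD except at KLF5, where they lie above, and MGLL, where they mix; they lie above for CHI3L1 and SAA1.

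Fat storage genes followed the same direction. Of 19 triglyceride synthesis genes, 14 were lower and 1 higher by the adjusted p, 9 of the former at 2-fold or more, with a median log2 fold change of -1.24. SCD, the stearoyl-CoA desaturase, was at 5889, 5584 and 6015 CPM in scramble control and 2260, 1595 and 1305 CPM in KD, 3.37-fold lower. FASN, the fatty acid synthase, was at 623, 798 and 666 CPM against 218, 222 and 182 CPM, 3.33-fold lower. GPAM, which starts glycerolipid synthesis, was at 875, 765 and 839 CPM against 185, 139 and 153 CPM, 5.17-fold lower. LPIN2, a phosphatidate phosphatase, was the member that rose, by 0.57 on the log2 scale. Lipid droplet proteins gave 8 lower and none higher of 12. PLIN1, the perilipin of large droplets, was at 146, 218 and 173 CPM against 68.2, 48.6 and 25.8 CPM, and PLIN2 at 1079, 1131 and 1218 CPM against 454, 423 and 417 CPM; the groups overlapped in neither.

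Genes of the lipolysis list were lower as well, 7 of 12 by the adjusted p and none higher, with a median log2 fold change of -1.31. The list is not made of lipases alone: the 7 include ADRA2A, a receptor that restrains lipolysis, at a log2 fold change of -2.95. PNPLA2, which encodes the triglyceride lipase ATGL, was at 299, 450 and 344 CPM in scramble control and 128, 138 and 106 CPM in KD, 2.92-fold lower. LIPE, the hormone-sensitive lipase, was at 55.6, 78.7 and 65.5 CPM against 23.3, 21.2 and 9.10 CPM, 3.68-fold lower. MGLL, the last lipase of the chain, was at 50.6, 82.7 and 68.8 CPM against 61.8, 74.9 and 82.5 CPM, and the groups overlapped (adjusted p = 0.609). For fatty acid uptake, 8 of 15 genes were lower and none higher, among them CD36 at 3.48-fold and the glycerol channel AQP7 at 5.19-fold. PDK4, which holds glucose carbon back from oxidation, was 5.68-fold lower. The insulin-responsive transporter SLC2A4 was near 0 counts in both groups, whereas SLC2A1 and SLC2A3, the transporters of basal glucose uptake, were higher by 0.71 and 1.13 on the log2 scale. IRS2 was 3.75-fold higher and IRS1 was lower at a log2 fold change of -0.43.

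Secreted proteins went both ways, with 7 higher and 7 lower of the 17 adipokines tested. CHI3L1, the chitinase-like protein YKL-40, was at 11.3, 19.9 and 19.5 CPM in scramble control and 1463, 1789 and 1782 CPM in KD, a log2 fold change of 6.65 (SE 0.20, adjusted p = 1.38e-10). The acute-phase protein SAA1 was at 50.6, 73.7 and 69.7 CPM against 554, 657 and 506 CPM, and SAA2 was 15.9-fold higher; the 2 genes are nearly identical, and how reads were shared between them is uncertain. GREM1, a BMP antagonist, was at 278, 213 and 257 CPM against 1373, 1475 and 1793 CPM, 6.24-fold higher. RARRES2, which encodes chemerin, held 3 counts in total in scramble control and 143 to 282 per KD library. APOE, a lipoprotein component, was 4.00-fold lower.

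Genes of growth factor and developmental signals went both ways. For the counts in this paragraph, 12.7% of all genes passed as higher and 14.2% as lower. Of 25 genes of the WNT pathway, 5 were higher and 7 lower by the adjusted p. WNT5A was at 158, 109 and 120 CPM in scramble control and 576, 520 and 718 CPM in KD, 4.70-fold higher, while SFRP4, a WNT antagonist, was 4.22-fold lower. Of 28 genes of TGF-β and BMP signaling, 11 were higher and 6 lower. Among these BMP2 was 3.51-fold and FST 3.78-fold higher, and SMAD6, an inhibitory SMAD, was at 58.3 ± 1.76 CPM against 10.7 ± 1.18 CPM (SD, n = 3 each), 5.42-fold lower. Of 23 angiogenic factors, 8 were higher and 5 lower, including FGF2 at 2.14-fold higher and VEGFA at a log2 fold change of -0.45. Leukocyte adhesion molecules gave 3 higher and 4 lower of 13, with a median log2 fold change of -0.27. Summed, they held 2290 to 2470 CPM in scramble control and 2330 to 2420 CPM in KD. ICAM1 was at 46.8, 67.6 and 56.0 CPM against 131, 154 and 124 CPM and VCAM1 was 3.90-fold higher, while ICAM2 was lower at a log2 fold change of -1.93. Of 20 proliferation genes, 5 were higher and none lower, 3 of them at 2-fold or more. That count was 10 without scramble replicate 1, 0 without scramble replicate 2 or 3 or KD replicate 1 or 2, and 1 without KD replicate 3. MKI67 was at 8.19 ± 5.54 CPM against 14.2 ± 2.04 CPM (SD, n = 3 each), with groups that overlapped (adjusted p = 0.106). Of 16 genes of MAPK feedback, 4 were higher and 1 lower, near the 26.9% of all genes that passed in either direction.

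The 10 largest increases among genes averaging 50 counts or more were mostly of genes at or near 0 counts in scramble control. ZNF385B, a zinc finger gene, had 0 counts in all 3 scramble libraries and 1424 to 1979 counts per KD library, at least 564-fold higher. EPYC, a cartilage proteoglycan, had 0 against 801 to 1484 counts, at least 395-fold higher. PLXNC1, a semaphorin receptor, and EYA4, a transcriptional coactivator, were at 0 in scramble control as well; their bounds are at least 123-fold and at least 50.2-fold higher. GIMAP8, BEX1, CNTNAP4 and MCF2 held 1 to 5 counts in total in scramble control, and MMP1, described above, and PLXDC2 completed the 10. The 10 largest decreases were GNAT3, SMIM11A, MACC1, PRG4, DCLK1, PARM1, HLA-DRB1, CDH18, MATN2 and HTR2A. CDH18 did not pass under DESeq2, and its log2 fold change ran from -11.03 to -4.42 without 1 library, moving over 1.5-fold without any 1 of the KD libraries. The fitted value also moved that far without scramble replicate 2 for GIMAP8, BEX1, CNTNAP4 and SMIM11A, without scramble replicate 3 for GIMAP8 and PLXDC2, without scramble replicate 1 for PLXDC2, and without KD replicate 2 for SMIM11A, HLA-DRB1 and HTR2A. PRG4, the lubricant proteoglycan lubricin, was at 248, 217 and 250 CPM in scramble control and 9.12, 4.82 and 2.90 CPM in KD, 41.8-fold lower. DCLK1, a kinase of microtubules, was at 68.4, 89.8 and 107 CPM against 3.20, 1.85 and 1.19 CPM. GNAT3 had 0 counts in KD against 72 to 142 per scramble library, at least 31.4-fold lower. SMIM11A has a near-identical copy and HLA-DRB1 close relatives, so that both values are uncertain.

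Without LPS, on the other 6 libraries, 1260 of 16217 genes (7.77%) were changed by KD. Of the 1355 genes changed with LPS, 860 (63.5%) were also changed without it, 859 of them in the same direction. A gene called in 1 setting alone need not differ between the settings. Whether the KD effect differed between the settings was tested as an interaction over all 12 libraries, and 219 of 17173 genes (1.28%) passed by the adjusted p. That number rests on single libraries, since it was 92 without replicate 2 of scramble control without LPS, 116 without replicate 3 of KD with LPS, 131 without replicate 1 of KD without LPS and 136 without replicate 2 of KD with LPS. Of the 1355 genes changed with LPS, 95 passed this interaction test over all 12 libraries. CXCL8 and CFD, at log2 fold changes of 1.79 and -4.22 with LPS and 1.63 and -4.03 without, did not pass (interaction adjusted p = 0.691 and 0.91). The genes given next passed whichever library was left out.

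FGF2, a growth factor for adipose stromal cells, was at 397, 402 and 486 CPM with LPS in scramble control and 867, 868 and 999.5 CPM in KD. Its log2 fold change was 1.10 with LPS and -0.16 without, a difference of 1.26 (adjusted p = 0.000109). SLC2A1 was higher in KD with LPS and lower without (log2 fold changes 0.71 and -0.54, adjusted p of the difference 0.000248). In KD against scramble control, KLF6 and the matrix glycoprotein THBS1 were higher with LPS, at 0.84 and 0.73. Without LPS they were close to 0, at 0.08 and 0.00. KLF6 was at 378.5, 372.5 and 336.7 CPM in scramble control without LPS and 173.6, 145.3 and 176.6 CPM with it. In KD it was at 377, 391.2 and 382.8 CPM without LPS and 292.9, 287.9 and 304 CPM with it. THBS1 in scramble control was at 11860, 12240 and 9646 CPM without LPS and 5400, 5852 and 6765 CPM with it. IL6 and MMP3 were higher in KD in both settings and more so with LPS, with differences of 1.17 and 1.78. MMP3 in scramble control was at 98.52, 124.1 and 83.78 CPM without LPS and 26.53, 23.78 and 35.46 CPM with it. In KD it was at 618, 545 and 587.5 CPM without LPS and 478.6, 476.3 and 726 CPM with it. The effect of LPS within a group was not tested here. CXCL5 went the other way, at 1.497 with LPS and 2.40 without, and GPAM was lower in both and more so with LPS. For CCL2, TLR4, IRAK2, PTGS2 and TNIP3 the difference passed over all 12 libraries but not without at least 1 library or under another setting. Without replicate 2 of scramble control without LPS, CCL2 had an adjusted p of 0.0567.

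**Figure D4:**
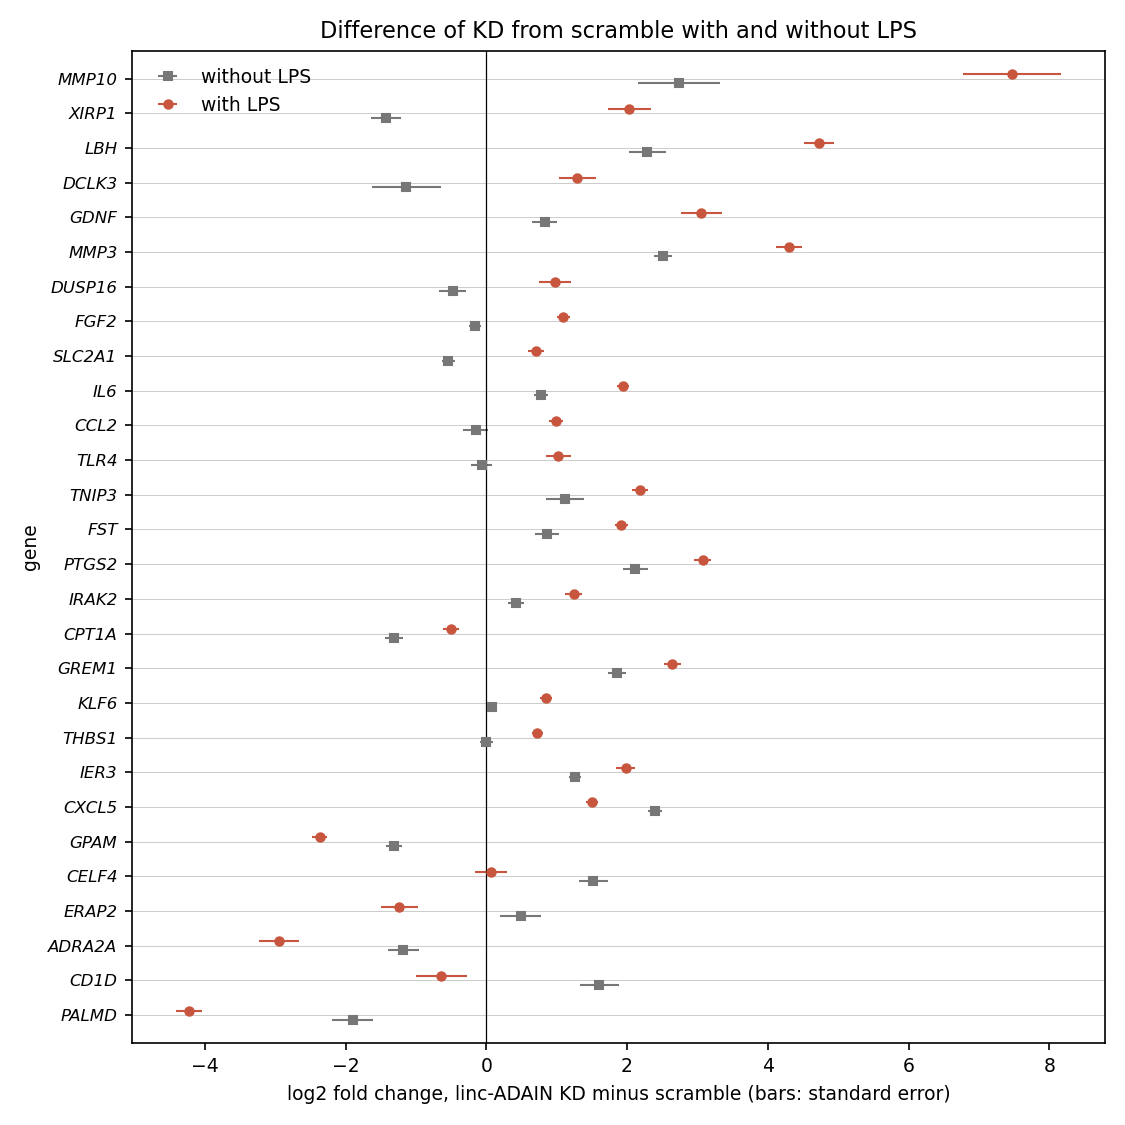
Log2 fold change of linc-ADAIN KD against scramble control (x axis, bars are standard errors) with LPS (red circles) and without LPS (gray squares) for 28 genes whose interaction passed over all 12 libraries (y axis). FGF2 sits at 1.10 with LPS and -0.16 without; WNT2 and SMIM11A, with few counts in a group, are left out.

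Seen by position, genes of 1 window on the short arm of chromosome 17 were lower together. Between 15 and 20 Mb (GRCh38), 50 of 56 genes averaging 50 counts or more were lower in KD, and 38 passed the test as lower (67.9%, against 18.9% of all 11696 placed genes with such counts). MFAP4 was the 1 gene there that passed as higher, at a log2 fold change of 0.34. The median log2 fold change was -0.75 with LPS and -0.69 without. By library, the medians against the mean of scramble control were -0.77, -0.65 and -0.80 in KD and -0.02, 0.02 and 0.00 in scramble control. Elsewhere on the short arm, the median was -0.02 between 0 and 5 Mb and 0.09 between 5 and 10 Mb. That of 15 to 20 Mb was the lowest of 293 windows, and the next was -0.43 on chromosome 3 between 120 and 125 Mb. Besides SREBF1 the window holds NCOR1, a corepressor of nuclear receptors (log2 fold change -1.10), the myosin phosphatase regulator MPRIP (-1.57), and ALDH3A2, which oxidizes fatty aldehydes (-2.07). The genes of chromosome 13 had a median of -0.24, with 73.3% of 206 lower. The cause was not tested. Among the 8 tested neighbors of linc-ADAIN on the short arm of chromosome 9, KANK1 and PUM3 passed as lower, at log2 fold changes of -0.34 and -0.33, KANK1 not without scramble replicate 3. These 2 of 8 are near the 26.9% of all genes that passed in either direction. The median log2 fold change of the 8 was -0.14.

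**Figure D5:**
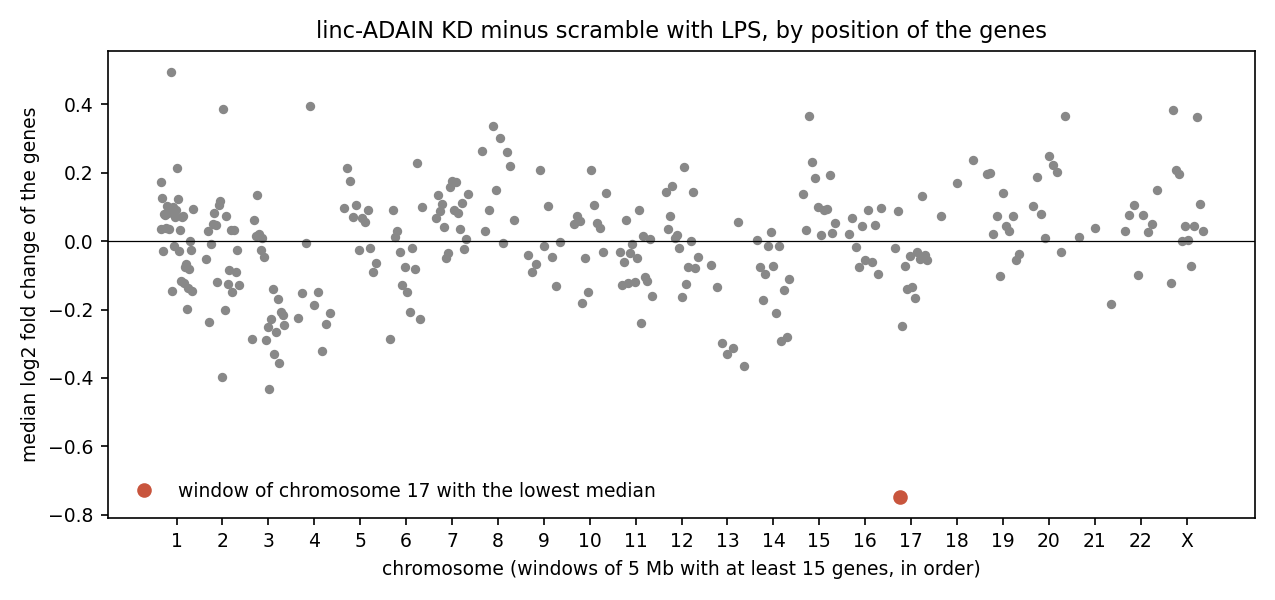
Median log2 fold change of linc-ADAIN KD against scramble control with LPS (y axis) in each of 293 windows of 5 Mb with at least 15 genes, in order along the chromosomes (x axis); each point is 1 window. The red point is the window of chromosome 17 between 15 and 20 Mb, at -0.75, and the highest point, on chromosome 1, is at 0.50.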

How the data were processed

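RNA-seq was measured in 12 samples, grouped by their labels as scramble or linc-ADAIN shRNA with or without LPS. Values were deposited as estimated counts of each gene, made with kallisto on GRCh38 and not normalized; the submitters' processing notes name kallisto 0.44.0, bcl2fastq 2.19 and DESeq2 1.32.0. The annotation release of the index is not given in the sources used here. The counts were rounded to whole numbers. The table held 28901 named genes and 1 entry without a name, which was not used (0.235% to 0.306% of a library's total).

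Genes whose counts summed to 10 or more across the libraries of a fit were tested in R 4.3.3 with edgeR 4.0.16 (TMM scaling, quasi-likelihood test, Benjamini-Hochberg adjustment). The 3 KD and 3 scramble libraries with LPS were fitted on their own, the 6 libraries without LPS likewise, and all 12 for the interaction. DESeq2 1.42.0, other scalings and filters, a replicate block and omission of each library served as alternatives, and those for the libraries without LPS and for the chromosome window were chosen after seeing the data. The test was checked on simulated counts in which 200 genes averaging 50 counts or more changed by 1.5 on the log2 scale. For the comparison with LPS it recovered 100% of them, with 3.38% of its calls false. Every simulated gene had the same extra spread, so this check does not measure the error rate in the real libraries. Depth on named genes was 28.4 to 53.8 M counts (1e6) per library, and count intervals and limits cover counting error only. Promoter windows are from RefSeq (GRCh38.p14), matched by gene symbol. The largest rises and falls were taken among changed genes averaging 50 counts or more whose groups did not overlap, and the 6 most positive and 6 most negative interactions among those passing with such counts. The comparison, its gene lists and the other named genes were chosen with earlier results of these data known. The hairpin sequences were not analysed here.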

Additional observations from a re-analysis of the deposited data

Results flagged for a closer look

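For the genes below, the effect of linc-ADAIN KD differed between libraries with and without LPS in edgeR's test of the interaction over 3 libraries per group, with adjusted p from 0.000109 (FGF2) to 0.047 (IER3). Each value is the log2 fold change with LPS minus that without.

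Among inflammatory genes the difference was 1.171 for IL6, 1.151 for CCL2, 0.8244 for IRAK2, 1.093 for TLR4, 1.073 for TNIP3, 0.72 for IER3 and 0.9624 for PTGS2. CXCL5, at -0.8945, was the neutrophil chemokine whose difference passed, and its KD effect was smaller with LPS. For the feedback phosphatase DUSP16 the difference was 1.457.

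Among growth factors and their antagonists it was 1.261 for FGF2, 2.244 for GDNF, 6.012 for WNT2, 1.063 for FST and 0.7943 for GREM1. Matrix genes gave 4.764 for MMP10, 1.785 for MMP3 and 0.7337 for THBS1, and the transcription regulators KLF6 and LBH gave 0.7641 and 2.445. The metabolic genes were GPAM at -1.053, CPT1A at 0.8173 and SLC2A1 at 1.255.

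Of the remaining genes, XIRP1 was at 3.45, DCLK3 at 2.428, PALMD at -2.32, CD1D at -2.237, ADRA2A at -1.764, ERAP2 at -1.716 and CELF4 at -1.449. XIRP1 and DCLK3 were higher in KD with LPS (log2 fold changes 2.03 and 1.29) and had negative values without (-1.42 and -1.14). SMIM11A, at -7.367, has a near-identical copy and few counts in a group, and WNT2 and MMP10 also rest on few counts in a group. Without 1 library, the value of MMP10 ran from 4.173 to 7.573 and that of SMIM11A from -11.79 to -6.396.

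Of these 30 genes, 16 passed under every alternative, namely CXCL5, DCLK3, FGF2, FST, GDNF, GPAM, IL6, KLF6, LBH, MMP10, MMP3, PALMD, SLC2A1, SMIM11A, THBS1 and XIRP1. The other 14 missed the threshold without at least 1 library or under another setting. CCL2 missed it without replicate 2 of scramble control without LPS, TNIP3 without replicate 1 of scramble control without LPS or replicate 3 of KD with LPS, and IRAK2 without replicate 2 of scramble control without LPS, replicate 3 of scramble control with LPS or replicate 3 of KD with LPS.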

How the results depend on the processing

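The count of 1355 changed genes ran from 1232 (glmTreat against 1.5-fold) to 1477 (DESeq2, which gave 948 genes no adjusted p and called 1334 of the same genes) over the alternatives that kept a fold threshold, and was 4292 by the adjusted p alone. Without 1 library it was 1247 to 1371, with 636 to 751 higher and 575 to 648 lower. Scaling by library size only gave 1357 with 59.8% higher against 54%, and moved the median of all genes from 0.03 to 0.11. The changed genes without LPS numbered 1074 to 1435, and 1074 to 1285 without 1 library. The interaction count of 219 was 475 with DESeq2, 431 with no filter and 92 to 243 without 1 library, and 1907 genes had an unadjusted p below 0.05. List members changed numbered 133 to 145 against 140. The chromosome 17 median was -0.6615 with library size only and -0.8041 (without KD_LPS replicate 2) to -0.7164 without 1 library. Of 184 named genes that passed, 165 passed in every alternative. Many of these were named because they passed with large changes, so this share does not describe all 1355 changed genes. The cause was not tested for any change given here.

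Replicate numbers shared by the groups were checked as a possible pairing. Deviations of samples with the same number correlated at 0.03, 0.18 and 0.00. KD replicates 1 and 2 correlated best with the scramble replicate of the same number, and KD replicate 3 with scramble replicate 1. The deviations are from means of 3 libraries and are not independent, so this check cannot decide whether samples were paired. With the replicate block, 1302 genes were changed (1255 shared), 1161 without LPS, 231 in the interaction and 144 list members, and CSF2 missed the threshold.

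Genes that did not pass changed sign. Without 1 library, log2 fold changes ran from -0.03574 to 0.1112 for CSF1, -1.185 to 0.6682 for SLC2A4, -0.0401 to 0.2957 for MGLL, -0.1238 to 0.3816 for CELF4, -0.5295 to 0.04228 for LY96, -0.05449 to 0.0792 for NFKBIA, -3.249 to 0.1967 for LEP and -8.596 to 4.01 for SOX9, whose counts lay mainly in scramble replicate 2 and KD replicate 1. List medians ran from -0.3223 to 0.1967 for adipokines (0.1277 with filterByExpr) and -0.1222 to 0.1019 for stromal markers. With library size only, ELAVL1 was at 3.673e-07, PDGFRA at 0.01651 and the AU-rich median at 0.03054. With filterByExpr the median of the other CXC chemokines was -0.01141, from fewer genes tested. TNF, LEP, LPL and SLC2A4 were limited by depth.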

Other observations

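Several genes whose levels were not given above also differed in KD with LPS by edgeR's test. Some are members of lists already counted: PTX3 of the adipokines and COL6A1 of the collagens and matrix proteins. ADRA2A belongs to the lipolysis list and MTTP to that of triglyceride synthesis. PTX3, a soluble pattern recognition protein, was at 4794, 5637 and 5815 CPM in scramble control and 7698, 7688 and 7688 CPM in KD, a log2 fold change of 0.51 (adjusted p = 9.75e-05). SHC3, an adaptor of receptor tyrosine kinases, was at 7.96, 8.13 and 7.87 CPM against 36.0, 32.3 and 38.6 CPM, 4.49-fold higher. MDK, a heparin-binding growth factor, rose from 0.0768, 0.0332 and 0.164 CPM to 1.76, 3.46 and 3.60 CPM. In none of these genes did the groups overlap. COL6A1, a chain of collagen VI, was at 5181, 5963 and 5532 CPM against 2241, 2476 and 2127 CPM, 2.42-fold lower. ADRA2A, an adrenergic receptor that restrains lipolysis, was at 10.8, 8.39 and 9.93 CPM against 1.16, 1.71 and 0.805 CPM, 7.73-fold lower. The creatine kinase CKB was at 2.61, 5.34 and 3.499 CPM against 0.991, 2.50 and 2.03 CPM and did not pass (adjusted p = 0.0696), and MTTP did not pass either (adjusted p = 0.293).

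Of 16 genes of fatty acid oxidation and thermogenesis, 1 was higher and 7 were lower by the adjusted p, with a median log2 fold change of -0.51 against 0.03 over all genes. Of 17 genes of insulin signaling and glucose uptake, 5 were higher and 5 lower. Of the 24 genes that the study names in its text, which were in part chosen on these libraries, 7 were higher and 10 lower.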
